A study of Homo sapiens with 6 samples.

Results

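The genes described here are 46 interferon-stimulated effector genes, a set that leaves aside the IFIT, OAS and ISG15 conjugation families. They were chosen by gene symbol from a list drawn up with earlier results of these data known. All 46 symbols were found among the 20683 genes of the deposited count tables. The cells were HT-1080, an established human fibrosarcoma line. They were exposed for 24 h either to SLV-8472-01, an IRAK4 inhibitor known here only by that code name and labelled at 5 mM (the unit could not be verified), or to 0.1% DMSO alone. No genetic change is given for either group, and whether the inhibitor dishes also held DMSO is not stated in the labels. Each group had 3 libraries, described by the series as biological replicates of this 1 cell line. The p-values therefore set the group difference against the spread among libraries of the same group, within this line only. Expression was read with an amplicon panel, in which each gene is represented by a short PCR product, so counts are compared between libraries and not between genes.

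Interferons bind receptors on the cell surface, and the kinases JAK1 and TYK2 then activate STAT proteins, which with IRF9 form a transcription factor complex that binds the interferon-stimulated response element in target promoters. The induced proteins act at many steps of a viral life cycle, from entry and genome copying to budding, and others amplify or restrain the signal. Many of these genes also have a basal level in cells that have seen no virus, and tumour lines differ in that level. IRAK4 is a kinase of another pathway, that of the Toll-like and interleukin-1 receptors, from which interferon genes can be switched on in some cells.

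The response element was searched for by letters in the promoters of the effector genes. The choice of genes used no sequence, but genes known to answer to interferon are likely to hold this element. A share above that of other genes was therefore likely from the choice itself. Sequences came from the RefSeq promoter table (GRCh38.p14), which held at least 1 start site for 37 of the 46 genes; GBP2, PML, LAMP3, APOL6, PARP10, IFITM2, TRIM22, LY6E and MX2 had none. In the 250 bases before the start site, on either strand, the core (GAAA, then 2 bases of any kind, then GAAA) was found for 24 of the 37 genes (64.9%), against 3.3% of the 8801 tested genes with a promoter and 3.02% of all 35116 promoters in the table. Among the genes that rose with the inhibitor (below) 10 of 12 held the core, and among those tested that did not pass 11 of 21 did. The windows that follow show the core, in capitals, for 8 genes that rose. Each is written 5′ to 3′ on the strand of the gene.
IFI6, chr1:27672256-27672327, minus strand: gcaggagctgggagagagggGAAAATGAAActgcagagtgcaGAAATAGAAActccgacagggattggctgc
IFI6, chr1:27672319-27672368, minus strand: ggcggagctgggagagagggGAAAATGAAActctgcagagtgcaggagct
IFI27, chr14:94110608-94110670, plus strand: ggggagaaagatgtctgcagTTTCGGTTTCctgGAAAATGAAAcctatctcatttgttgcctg
IFI44, chr1:78649751-78649788, plus strand: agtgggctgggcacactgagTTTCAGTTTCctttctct
RSAD2, chr2:6877612-6877661, plus strand: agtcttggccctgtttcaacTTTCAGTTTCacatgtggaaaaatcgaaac
BST2, chr19:17405738-17405767, minus strand: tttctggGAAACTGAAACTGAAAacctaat
DDX60, chr4:168318811-168318860, minus strand: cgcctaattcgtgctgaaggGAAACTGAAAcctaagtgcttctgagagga
DDX60L, chr4:168480513-168480592, minus strand: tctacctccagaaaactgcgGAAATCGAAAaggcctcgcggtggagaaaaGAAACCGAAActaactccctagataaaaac
TRIM14, chr9:98119223-98119268, minus strand: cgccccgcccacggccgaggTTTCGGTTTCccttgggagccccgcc

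The same core was present before the start of genes that did not pass the test, and 6 of them are shown for comparison. The letters in capitals are identical in SAMD9 and ISG20 and in the copies before BST2 and DDX60 above.
SAMD9, chr7:93118086-93118135, minus strand: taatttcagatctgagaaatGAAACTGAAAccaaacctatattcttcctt
ISG20, chr15:88638937-88638966, plus strand: taacaaactaGAAACTGAAAcagggtcggg
GBP1, chr1:89065316-89065345, minus strand: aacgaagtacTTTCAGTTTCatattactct
RTP4, chr3:187368333-187368362, plus strand: tccatacacaGAAACAGAAActgaaccgaa
IFITM3, chr11:320885-320913, minus strand: gGAAAAGGAAActgttgaGAAACCGAAAc
LGALS3BP, chr17:78979962-78979991, minus strand: gtggtttctgGAAATCGAAAgtagactctt

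SAMHD1 and SP100, which rose, had no match in these windows, and that says only that these letters are not there. The gamma-activated site, searched as TTCNNNGAA, was found for 10 of the 37 genes (27%), 4 of the 12 risers among them, against 7.53% of the tested genes. Both strands were searched, and matches of the 2 motifs at overlapping positions were kept. Of the 175 genes outside the set that rose and had a promoter in the table, 7 (4%) held the response element core.

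**Figure D1:**
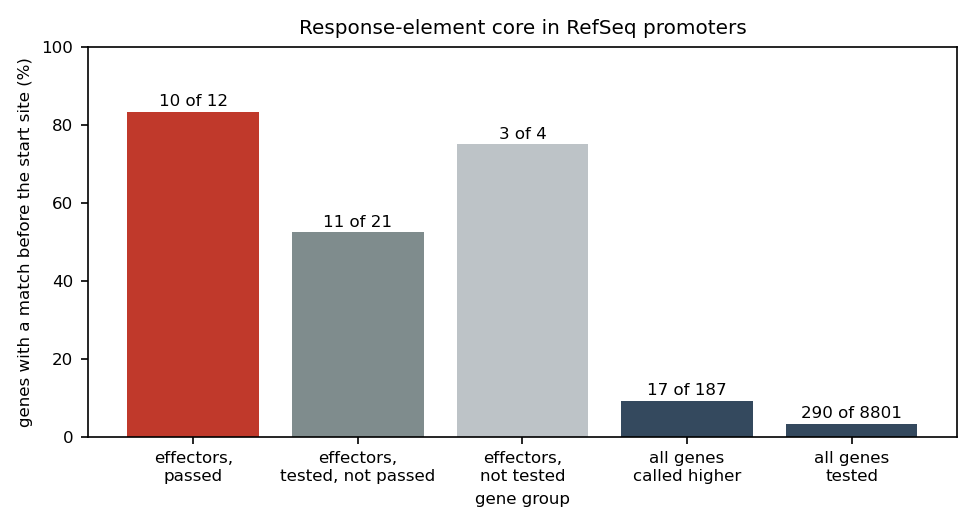
Share of genes (%, vertical axis) with the response element core in the 250 bases before a RefSeq start site, for effector genes that passed the test, that were tested and did not pass, and that were not tested, and for all genes called higher and all genes tested. The effector genes stand at 10 of 12, 11 of 21 and 3 of 4, against 290 of 8801 among all genes tested.

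Of the 46 effector genes 40 had enough counts to be tested, and 12 rose with the inhibitor while none fell (edgeR, p adjusted over all tested genes, threshold 0.05). That is 30% of the tested effectors, where 3.87% of all 11216 tested genes were called, 1.95% as higher and 1.92% as lower. The list was chosen with earlier results of these data known, so this contrast only describes it. Rises of at least 2-fold were called for 7 effectors, against 0.383% of all tested genes. Ranked by log2 fold change the risers were RSAD2, IFI6, BST2, IFI27, IFI44, MX1, PARP9, DDX60, DDX60L, SAMHD1, SP100 and TRIM14. The median log2 fold change of the 40 was 0.36, and that of all tested genes was -0.0044. Levels below are counts scaled to a common library size (CPM) after scaling of the libraries by TMM, fold changes are inhibitor over DMSO on the log2 scale with their standard error (SE), and an interval is the 95% interval of that log2 fold change. At an unadjusted p under 0.05, 21 of the 40 differed (52.5%, against 19.5% of all tested genes), 20 of them higher and GBP2 lower. All 3 inhibitor values lay above all 3 DMSO values for 17 effectors (42.5%, against 13.7%) and below them for 2 (5%, against 11.8%).

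**Figure D2:**
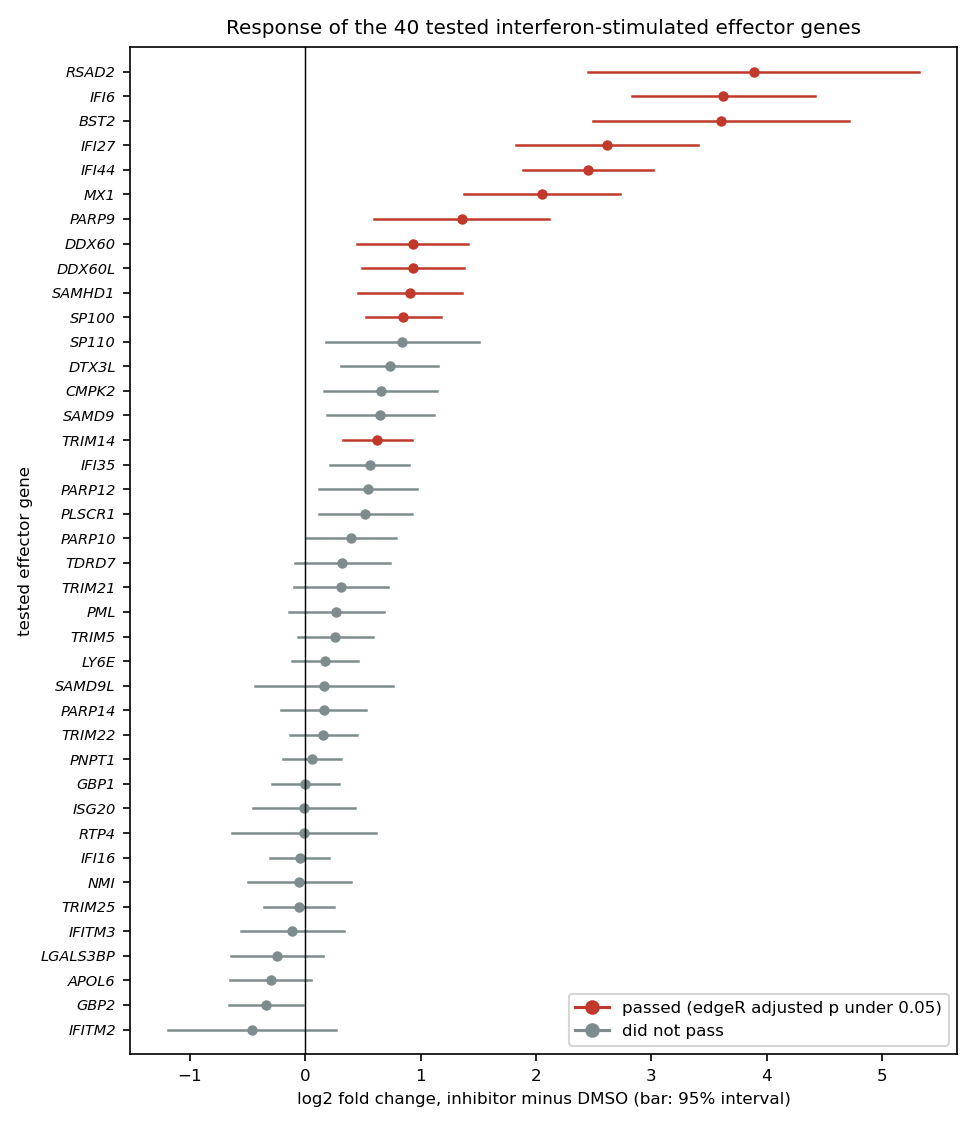
Log2 fold change, inhibitor minus DMSO (horizontal axis), of each of the 40 tested effector genes, in rank order, with bars for the 95% interval and red for the 12 that passed. RSAD2, IFI6 and BST2 lie above 3.5, a middle group from MX1 to IFI27 lies between 2 and 2.7, and most others lie below 1.

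The libraries did not differ equally from each other. Totals ran from 9162281 to 13184553 counts. Over well-counted genes the median absolute log2 difference between libraries was 0.312 and 0.245 between DMSO 3 and DMSO 1 and 2, 0.153 between DMSO 1 and DMSO 2, and 0.12 to 0.129 among the inhibitor libraries. Between an inhibitor and a DMSO library it was 0.202 to 0.269. DMSO 1 and DMSO 3 thus differed more than any inhibitor library from any DMSO library. Every replicate pair differed by more than counting noise (chi-square per degree of freedom from 5.39 to 38.8). All 12 mesenchymal marker genes examined were tested and none passed, with summed levels of 11243 to 11704 CPM in the inhibitor libraries and 11036 to 12784 CPM in DMSO, much of it from VIM. All of them except VIM had a negative log2 fold change, and the median of the list was -0.28. For 6 of the 12 all inhibitor values lay below all DMSO values, against 11.8% of all tested genes. The part of these differences in the effector results was not tested. Of 10 immune cell markers 4 had no count in any library, PTPRC, CD3E and CD79A among them, and 1 was tested. This was CD68, a lysosomal protein gene used as a macrophage marker, at 247 to 288 CPM with the inhibitor and 319 to 369 CPM without (-0.36, adjusted p = 0.106). IRAK4 had 9 to 20 counts per library and did not pass (-0.16, SE 0.427, adjusted p = 0.88).

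Among proteins of cell and organelle membranes 1 of 5 tested genes rose. BST2 encodes tetherin, which holds budding virus particles at the cell surface. It stood at 13.6, 9.54 and 2.91 CPM in inhibitor 1, 2 and 3 and at 0.391, 0.989 and 0.788 CPM in DMSO 1, 2 and 3. Every inhibitor library was above every DMSO library, and inhibitor 3 was much the lowest of its group. The log2 fold change was 3.60 (SE 0.516, adjusted p = 0.00141, interval 2.49 to 4.71), on 302 counts against 25. PLSCR1, the phospholipid scramblase gene, had 44.8, 47.3 and 29.4 CPM with the inhibitor and 22.8, 28.6 and 33.8 CPM without. Its groups overlapped, because inhibitor 3 fell among the DMSO values, and it did not pass at 0.52 (SE 0.187, adjusted p = 0.138). Without DMSO 3 it did, at 0.64 (adjusted p = 0.00219). That fit called 10.8% of all 11386 tested genes higher, against 1.95% in the main comparison. PLSCR1 was not called when any other single library was left out (adjusted p from 0.0897 to 0.483).

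LY6E, a GPI-anchored protein that limits coronavirus fusion and aids some other viruses, lay between 73.85 and 84.2 CPM with the inhibitor and between 61.2 and 80.4 CPM without. The IFITM proteins block fusion of virus and endosome membranes, and their genes, close copies in a cluster, share sequence through which reads could be assigned to the wrong member. IFITM3 stood at 6.13, 6.06 and 5.41 CPM against 7.2, 7.08 and 4.5 CPM, and IFITM2 at 2.04, 2.23 and 0.936 against 3.05, 2.51 and 1.58 CPM. In both genes the groups overlapped, with log2 fold changes of -0.11 (SE 0.207, adjusted p = 0.821) and -0.46 (SE 0.34, adjusted p = 0.497). IFITM1 had 2 counts over each group, too few for any difference to be detectable.

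Of the interferon-induced GTPases, MX1 was the single riser among 3 tested. MX1 encodes MxA, which traps the nucleocapsids of influenza and other RNA viruses. Its level was 29.8, 22.55 and 10.1 CPM in inhibitor 1 to 3 and 4.38, 6.17 and 4.5 CPM in DMSO 1 to 3. The groups did not overlap, and inhibitor 3 was again the lowest of its group. The log2 fold change was 2.05 (SE 0.313, adjusted p = 0.00229, interval 1.38 to 2.72). MX2, its neighbour and paralog, which acts on HIV-1 at the nuclear pore, was too weakly read to be tested, with 14 counts over the inhibitor libraries and 1 over DMSO. All 14 came from inhibitor 2 and 3, and the ratio of 14.7 has a counting interval of 2.24 to 623. That interval leaves out the spread between libraries, and MX2 was not called in the fit with no filter on low counts.

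The guanylate-binding proteins coat bacteria and vacuoles inside the cell and answer above all to interferon gamma. GBP1 stood at 26.95, 27.2 and 22.9 CPM with the inhibitor and 26, 24.05 and 27.1 CPM without. Its log2 fold change was 0.00 (SE 0.136, adjusted p = 0.997), with an interval of -0.29 to 0.29. GBP2 was at 15, 19.8 and 16.1 CPM against 21.8, 21.8 and 20.7 CPM, so that each inhibitor value was below each DMSO value. It did not pass (-0.34, SE 0.148, adjusted p = 0.225) but was called lower without DMSO 3 (-0.38, adjusted p = 0.0497). In that fit 1269 of all 11386 tested genes were called lower.

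The group of IFI6, IFI27, IFI35, IFI44, IFI44L and NMI held 3 risers of 5 tested genes and the best-counted large response. IFI6, a mitochondrial and endoplasmic reticulum protein that opposes apoptosis and flavivirus replication, had 5779, 4331 and 1147 counts in inhibitor 1 to 3 and 361, 306 and 248 in DMSO 1 to 3. On the CPM scale these were 472, 386 and 119 against 28.2, 23.3 and 27.9. The DMSO libraries were tight and the inhibitor libraries spread widely, with no overlap. The log2 fold change was 3.62 (SE 0.368, adjusted p = 7.79e-05, interval 2.83 to 4.41). IFI27, of the same protein family, stood at 39, 32.9 and 10.7 CPM against 3.68, 5.33 and 4.5 CPM. It rose by 2.62 on the log2 scale (SE 0.367, adjusted p = 0.00126). IFI44, a cytoplasmic protein of unsettled function, was at 27.2, 25.6 and 13.2 CPM against 3.36, 4.95 and 3.71 CPM, a rise of 2.45 (SE 0.264, adjusted p = 0.000122). In all 3 genes inhibitor 1 was the highest library and inhibitor 3 the lowest of its group.

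IFI44L, the neighbour of IFI44, was hardly read: 6 counts over the inhibitor libraries, 5 of them in inhibitor 2, and 0 over DMSO. IFI35 and NMI encode partner proteins that bind each other. IFI35 had 35.5, 36 and 26.7 CPM with the inhibitor and 24.4, 23.7 and 18.5 CPM without. Its groups did not overlap, but the difference of 0.56 (SE 0.159, adjusted p = 0.0683) did not pass. Without DMSO 3 it passed, at 0.44 (adjusted p = 0.0182), in a fit that called 10.8% of all tested genes higher. IFI35 was not called when any other single library was left out (adjusted p from 0.0504 to 0.31). NMI stayed between 3.51 and 3.95 CPM with the inhibitor and between 3.6 and 4.17 CPM without (-0.05, SE 0.207, adjusted p = 0.926).

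Enzymes of nucleotides and nucleic acids were the group with most risers, 4 of 7 tested. RSAD2 encodes viperin, a radical SAM enzyme that makes a chain-terminating nucleotide. It had 49, 47 and 10 counts in inhibitor 1 to 3 and 3, 0 and 4 counts in DMSO 1 to 3. The groups were apart although the counts were low, and the ratio of summed counts was 15.9 with a 95% counting interval of 7.47 to 40.6. The fitted log2 fold change was 3.89 (SE 0.669, adjusted p = 0.00549). Without inhibitor 2 the call was lost (adjusted p = 0.0511). The size also rested on single DMSO libraries, with 3.23 without DMSO 2, below BST2 (3.96) and IFI6 (3.54) in the same fit, and 4.63 without DMSO 3. It was 5.40 with limma-voom and library quality weights. CMPK2, a mitochondrial nucleotide kinase gene that lies next to RSAD2 in the genome, stood at 4.41, 3.57 and 4.47 CPM against 2.58, 2.97 and 2.25 CPM. These groups did not overlap either, and inhibitor 3 was the highest of them, unlike in RSAD2. CMPK2 did not pass, at 0.66 (SE 0.229, adjusted p = 0.126, interval 0.17 to 1.15). The interval of RSAD2 ran from 2.45 to 5.32, and the difference between the neighbours was not tested.

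SAMHD1, which degrades deoxynucleotides and so starves retroviral reverse transcription, was at 11.2, 10.9 and 6.87 CPM with the inhibitor and 5.71, 5.1 and 4.62 CPM without. The rise was 0.91 (SE 0.211, adjusted p = 0.0294). DDX60 and its neighbour DDX60L are related helicase genes, DDX60 being a cofactor of RNA sensing. DDX60 had 15.1, 13.1 and 8.11 CPM against 5.4, 6.77 and 7.09 CPM, and DDX60L had 13.5, 14.1 and 12.4 CPM against 6.02, 5.56 and 9.79 CPM. Both rose by 0.93 (SE 0.223 and 0.206, adjusted p = 0.0341 and 0.0225). They differed in which library narrowed the gap: in DDX60 it was inhibitor 3, in DDX60L DMSO 3. None of these 3 calls held without inhibitor 1 or without inhibitor 2 or without DMSO 2, where the adjusted p lay between 0.11 and 0.204, DDX60 was also not called without DMSO 1 (0.0641), and DDX60L was also not called without inhibitor 3 (0.0747).

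ISG20, an exonuclease that degrades RNA, had 11.6, 12.6 and 13.7 CPM with the inhibitor and 16, 13.5 and 8.22 CPM without, a spread over the DMSO libraries that enclosed all the inhibitor values (-0.01, SE 0.207, adjusted p = 0.985). PNPT1, the mitochondrial polynucleotide phosphorylase gene, lay between 114.8 and 125 CPM with the inhibitor and between 110.2 and 120.6 CPM without. Its log2 fold change of 0.06 (SE 0.116, adjusted p = 0.832) has an interval from -0.19 to 0.31.

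Among the ADP-ribosyltransferases and their ubiquitin ligase partner 1 of 5 rose. PARP9 and DTX3L encode proteins that work as a complex, and the genes are neighbours. PARP9 was read by 23, 23 and 13 counts against 8, 11 and 5. This is 1.88, 2.05 and 1.35 CPM against 0.626, 0.837 and 0.563 CPM, without overlap. It rose by 1.36 (SE 0.354, adjusted p = 0.0486), the call nearest to the threshold. The call was lost without any 1 of the inhibitor libraries (0.0826 to 0.223), without DMSO 1 (0.115) or DMSO 2 (0.113), and with DESeq2 (0.0986). DTX3L was better counted, at 44.8, 36.6 and 24.1 CPM against 19.9, 19.4 and 24.65 CPM. Inhibitor 3 fell just below DMSO 3, so the groups overlapped, and the difference of 0.73 (SE 0.196) did not pass (adjusted p = 0.0541). Without inhibitor 3 it was 0.94 (adjusted p = 0.021), and without DMSO 3 it was 0.83 (adjusted p = 0.00036). Those fits called 0.607% and 10.8% of all tested genes higher. DTX3L was not called without inhibitor 1, inhibitor 2, DMSO 1 or DMSO 2 (adjusted p from 0.0745 to 0.285).

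The other ADP-ribosyltransferase genes followed in the order PARP12, PARP10 and PARP14. PARP12, a zinc finger protein that restricts alphaviruses, had 10.4, 11.9 and 7.49 CPM against 7.74, 6.32 and 6.3 CPM (0.55, SE 0.198, adjusted p = 0.14). PARP10 had 15.3, 14.7 and 12.7 CPM against 12.4, 11.8 and 7.88 CPM (0.40, SE 0.183, adjusted p = 0.25). PARP14, a macrodomain protein, had 17.6, 17.5 and 13.2 CPM against 13.9, 17 and 12.3 CPM (0.16, SE 0.172, adjusted p = 0.662). Only PARP10 of these 3 had groups that did not overlap.

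Of 5 tripartite motif (TRIM) genes, which encode ubiquitin ligases and related proteins, TRIM14 rose. TRIM14, a mitochondrial adaptor of RNA sensing that lacks the RING domain, stood at 54.5, 57.05 and 45 CPM with the inhibitor and 36.45, 30.5 and 34.6 CPM without. The groups did not overlap, and the rise was small but tightly measured, 0.63 (SE 0.138, adjusted p = 0.0216). It was not called without inhibitor 1 (0.139), inhibitor 2 (0.164) or DMSO 2 (0.125). TRIM5, which recognises retroviral capsids, had 65.9, 68.2 and 51 CPM against 45.4, 48.9 and 60.6 CPM. Here DMSO 3 and inhibitor 3 crossed, and the difference of 0.26 (SE 0.151, adjusted p = 0.361) did not pass. Without DMSO 3 it was 0.38 (adjusted p = 0.0233), in a fit that called 10.8% of all tested genes higher. TRIM5 was not called when any other single library was left out.

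TRIM21, the cytosolic antibody receptor, had a log2 fold change of 0.31 (SE 0.19, adjusted p = 0.386). TRIM22 was at 0.16 (SE 0.135, adjusted p = 0.574), and TRIM25, the ligase that acts on the RNA sensor RIG-I, was at -0.06 (SE 0.141, adjusted p = 0.871). TRIM25 lay between 64 and 69.2 CPM with the inhibitor, inside the DMSO range of 56.3 to 80.6 CPM.

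Nuclear bodies and nuclear DNA sensing gave 1 riser of 4. SP100, a constituent of PML bodies that represses the genomes of DNA viruses, stood at 22.2, 22 and 20.7 CPM against 10.5, 11.9 and 13.85 CPM. Unlike the strongest risers it was nearly level over the inhibitor libraries, and the groups did not overlap. The rise was 0.85 (SE 0.151, adjusted p = 0.00639), and it just missed the threshold without inhibitor 1 (0.0521) or inhibitor 2 (0.0583). SP110, of the same family, had 30, 25 and 16 counts against 15, 13 and 13. Scaled to library size its groups were apart, and the log2 fold change of 0.84 (SE 0.308, adjusted p = 0.144) did not pass. It passed with limma-voom and library quality weights (1.00, adjusted p = 0.0137) and without inhibitor 3 and DMSO 3 together (1.10, adjusted p = 0.036). Those fits called 12.4% and 9.92% of all tested genes higher. SP110 was not called when any single library was left out. PML, the organiser of the bodies, had 25.8, 22.4 and 25.4 CPM against 25.6, 21.4 and 13.5 CPM (0.27, SE 0.192, adjusted p = 0.476). Only DMSO 3 was low. IFI16, a nuclear DNA sensor, was at 219, 245 and 210.1 CPM against 228, 215 and 253 CPM (-0.05, SE 0.119, adjusted p = 0.875, interval -0.3 to 0.21).

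None of 6 tested genes among the remaining effectors passed. SAMD9 and SAMD9L are neighbouring paralogs that restrict poxviruses and slow protein synthesis. SAMD9 had 13.2, 12 and 7.91 CPM against 5.55, 8.37 and 7.32 CPM (0.65, SE 0.218, adjusted p = 0.113), with inhibitor 3 inside the DMSO range. It passed without DMSO 3 (0.66, adjusted p = 0.0172), in a fit that called 10.8% of all tested genes higher. SAMD9 was not called when any other single library was left out. SAMD9L had 5.47, 3.92 and 2.5 CPM against 3.05, 4.41 and 3.27 CPM (0.16, SE 0.278, adjusted p = 0.806). TDRD7, which inhibits autophagy used by paramyxoviruses, had 6.62, 7.31 and 6.97 CPM against 4.62, 6.55 and 5.52 CPM (0.32, SE 0.191, adjusted p = 0.374). RTP4 was at -0.01 (SE 0.291, adjusted p = 0.985).

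APOL6, of the apolipoprotein L family, was below DMSO in every inhibitor library, at 7.6, 6.77 and 6.97 CPM against 8.68, 8.83 and 8.78 CPM. It did not pass (-0.30, SE 0.164, adjusted p = 0.335). LGALS3BP, a secreted glycoprotein that binds galectin-3, had 289, 282 and 222 CPM with the inhibitor and 395.5, 329 and 214 CPM without. DMSO 3 was below all the inhibitor values and DMSO 1 and 2 above them, and the difference of -0.24 (SE 0.185, adjusted p = 0.512) became -0.47 (adjusted p = 0.00222) without DMSO 3. That fit called 1269 of all 11386 tested genes lower.

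The last 3 effectors had too few counts for the test. XAF1, an antagonist of the apoptosis inhibitor XIAP, had 14 counts over the inhibitor libraries, 9 of them in inhibitor 2, against 3 over DMSO. The ratio was 4.91, with a counting interval of 1.37 to 26.7. This too leaves out the spread between libraries, and XAF1 was not called in the fit with no filter on low counts. EPSTI1 had 12 against 6 (ratio 2.1, interval 0.731 to 6.83), and LAMP3, a lysosomal membrane protein gene, 16 against 16 (ratio 1.05, interval 0.493 to 2.25).

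**Figure D3:**
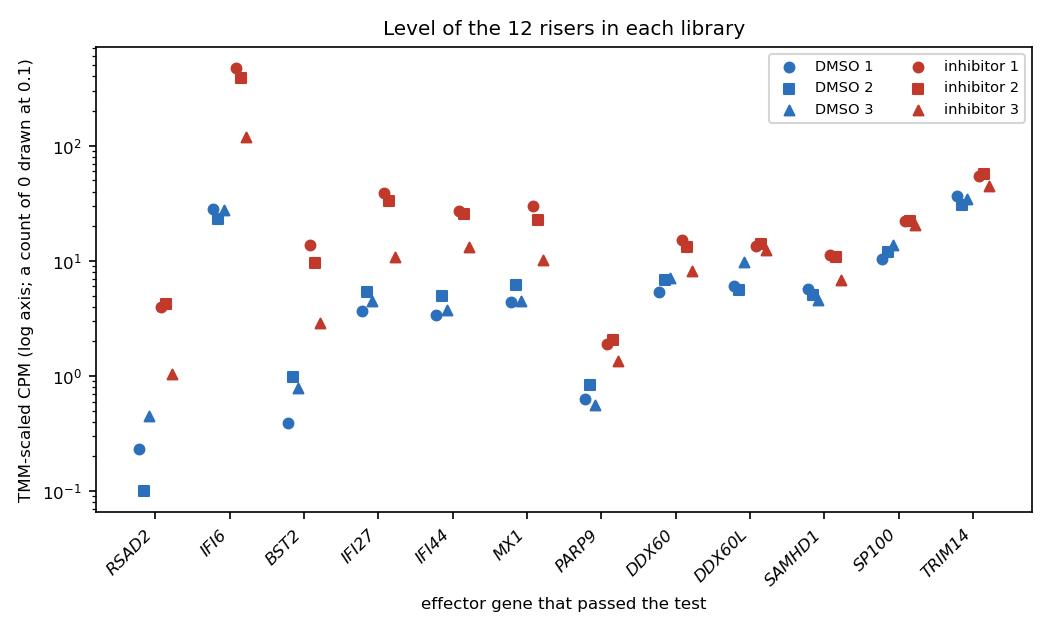
TMM-scaled CPM (vertical log axis) of the 12 effector genes that rose, with 1 point per library, blue for DMSO and red for the inhibitor, and the replicate number as the shape. Inhibitor 3 (red triangle) is the lowest inhibitor library in all 12 genes, and no red point lies at or below a blue point of the same gene.

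Many of the genes that rose were spread widely within the inhibitor group, though not all of them and not they alone. The coefficient of variation over the inhibitor libraries was 3.81% for SP100 and 6.5% for DDX60L, which rose, and 40.2% for IFITM2 and 37.6% for SAMD9L, which did not pass. The inhibitor 3 library was the lowest of its group in 12 of the 12 risers and in 20 of the 28 tested effectors that did not pass, against 35.6% of all tested genes. Its level was 25.1% to 93.6% of the mean of inhibitor 1 and 2 in the risers, with a median of 53.8%. In the other tested effectors the median was 85.9% (43.8% to 113.6%), and over all tested genes it was 99.5%. For IFI6 the mean of inhibitor 1 and 2 was 16.2 times the DMSO mean, and inhibitor 3 was 4.505 times the DMSO mean. The same ratios were 16 and 4.03 for BST2, 7.98 and 2.38 for IFI27, 5.22 and 2.01 for MX1, but 1.83 and 1.72 for SP100 and 1.93 and 1.74 for DDX60L. The genes with the largest fold change thus lost most in inhibitor 3; both quantities use the same inhibitor values. Across all well-counted genes the median absolute log2 difference of inhibitor 3 was 0.129 from inhibitor 1 and 0.128 from inhibitor 2, slightly more than the 0.12 between these. What moves inhibitor 3 was not tested.

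**Figure D4:**
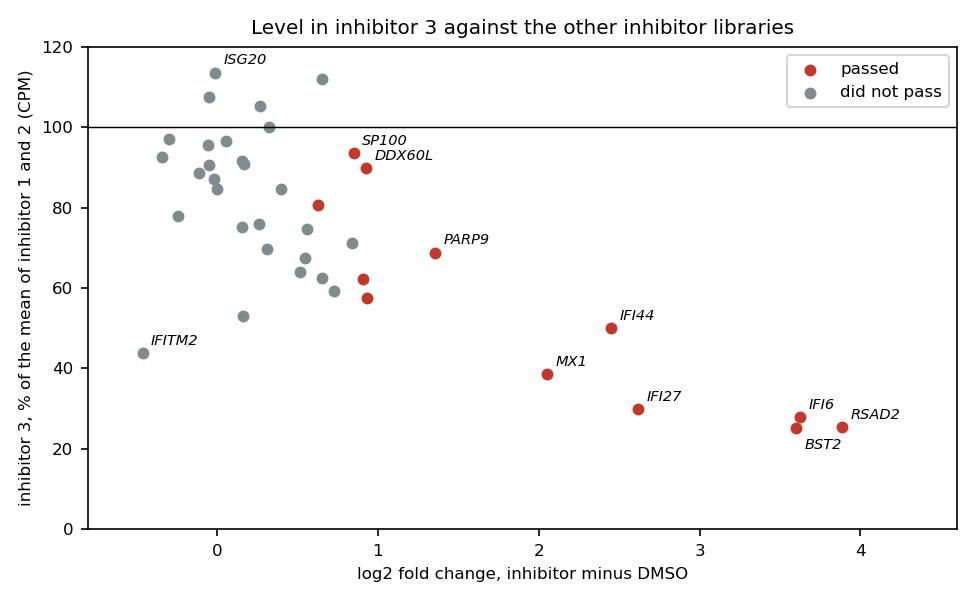
Level in inhibitor 3 as a percentage of the mean of inhibitor 1 and 2 (vertical axis) against the log2 fold change of all inhibitor over all DMSO libraries (horizontal axis), for the 40 tested effector genes, red where the gene passed. BST2, RSAD2, IFI6 and IFI27 lie between 25.1% and 29.8%, SP100 and DDX60L near 90%, and ISG20 above 100%.

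The median coefficient of variation of the risers was 32.3% over the inhibitor libraries and 19.1% over DMSO. For the tested effectors that did not pass these were 13% and 16%, and for all tested genes 8.82% and 15%. The 5 genes BST2, MX1, IFI6, IFI27 and IFI44 passed under each of 15 alternative analyses, including every omission of a library. The number of risers was 6, 5 and 11 without inhibitor 1, 2 and 3, and 10, 7 and 17 without DMSO 1, 2 and 3, and without DMSO 3 the 2 genes GBP2 and LGALS3BP were lower. The share of all tested genes called higher moved as well, from 0.334% without inhibitor 2 to 10.8% without DMSO 3. Without DMSO 3, 1269 of all 11386 tested genes were called lower, beside 2 of the 40 tested effectors.

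For the effectors that did not pass, the intervals limit how large a change could have been. Of the 28 such genes, 23 had an interval inside a 2-fold change in either direction, and 10 had one inside a 1.5-fold change. IFI16, PNPT1, GBP1, TRIM25 and LY6E were among the latter.

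Other genes of the interferon pathway were taken from 7 lists of 68 genes, of which 66 were found by name and 47 tested. Of these 47 genes 10 rose and 1 fell, where 1.95% of all tested genes were called higher and 1.92% lower. These lists too were chosen with earlier results of these data known. Interferon genes were hardly read: 8 of 9 ligand genes, IFNB1, IFNA1, IFNA2, IFNG, IFNL1, IFNL2, IFNL3 and IFNK, had at most 2 counts over all 6 libraries. The ninth was IFNE, the epithelial interferon epsilon gene, with 52 counts against 63 (-0.22, SE 0.361, adjusted p = 0.798). None of 8 tested receptor and JAK kinase genes passed.

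Among STAT and IRF factors 1 of 8 tested rose. IRF9, the DNA-binding subunit of the response element complex, had 15.8, 21.4 and 12.7 CPM with the inhibitor and 8.92, 10.8 and 9.57 CPM without (0.77, SE 0.194, adjusted p = 0.0412). The call was lost without inhibitor 1 (0.139), inhibitor 2 (0.271), DMSO 1 (0.0716) or DMSO 2 (0.106). STAT2 was at 0.17 (SE 0.126, adjusted p = 0.504) and IRF1 at 0.00 (SE 0.158, adjusted p = 0.998), while IRF7 had 1 count over each group.

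In the other lists, 2 of 8 genes of feedback and ISG15 conjugation rose, led by ISG15 (2.14, SE 0.264) and HERC6 (1.29, SE 0.249). Of the IFIT and OAS families 6 of 7 rose, led by OAS2 (4.14, SE 0.592) and IFIT1 (2.57, SE 0.367). Of nucleic acid sensors and adaptors 1 of 9 rose, EIF2AK2, the gene of the RNA-activated kinase PKR (0.63, SE 0.14, adjusted p = 0.0223). Neither HERC6 nor EIF2AK2 was called without inhibitor 1, inhibitor 2 or DMSO 2 (adjusted p from 0.0542 to 0.0924 for HERC6 and from 0.104 to 0.159 for EIF2AK2). Among 6 tested targets typical of interferon gamma none rose, and CD274, which encodes PD-L1, fell from 75.1, 72.7 and 75.65 CPM in DMSO to 34.8, 31 and 32.7 CPM (-1.18, SE 0.122, adjusted p = 8.84e-05). Another 6 genes of this list had too few counts for the test. Among them CXCL10 had 4, 8 and 6 counts in inhibitor 1 to 3, and CXCL11 had 2, 1 and 1. Both had 0 counts over DMSO. The inhibitor 3 library was the lowest of its group in 9 of the 10 risers of these lists, against 35.6% of all tested genes.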

How the data were processed

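The deposited files hold unscaled read counts, 1 file per library for 6 libraries and 1 row per gene symbol, as the values show. Per the labels' protocols, an Ion AmpliSeq transcriptome panel was used, with sequencing by Ion Torrent Proton. HTSeq, DESeq2 1.20.0 and hg19 are named, without a role, in the submitters' processing notes, and no aligner is given in the sources used here. No molecular identifiers are named, so counting intervals cover counting error only. Symbol-level counts cannot part near-identical copies.

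Low genes were removed with filterByExpr (minimum count 10, minimum total 15), leaving 11216. After TMM scaling, inhibitor and DMSO were compared by the quasi-likelihood test of edgeR 4.0.16 (R 4.3.3), with Benjamini-Hochberg adjustment over those genes and a threshold of 0.05. With library totals in place of TMM, 336 genes were higher and 163 lower, against 219 and 215. CPM were computed by dividing counts by the TMM-scaled totals, with the scaling factors from edgeR. The SE is the absolute log2 fold change over the root of the F statistic, and the interval uses the test's degrees of freedom. Genes under the filter got the ratio of summed counts per scaled library total with an exact 95% binomial interval. Alternatives used DESeq2 1.42.0 and limma 3.58.1. The fits were tested on simulated counts. Well-counted genes have a mean count of at least 50.

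The effector genes, lists and tests were chosen with earlier results of these data known. Named genes are all effector genes, the 2 called genes with the largest change in each pathway list, and STAT2, IRF9, IRF7, IRF1, IRAK4 and the interferon ligand genes. CXCL10 and CXCL11 were added after seeing their counts. Promoters of GRCh38.p14 serve for sequence only. Where a match lay in an exon of any GENCODE v29 transcript, at most 30 bases are shown. A planned comparison of protein sequences was not run. Levels of 2 pathway genes are not analysed here, and some other genes are not reported here.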

Additional observations from a re-analysis of the deposited data

How the results depend on the processing

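With 3 libraries a group, counts of calls moved with single libraries and with how libraries were weighted. The number of genes called over all genes tested was 831 with no filter on low counts, 2606 with limma-voom and library quality weights, 2277 without inhibitor 3 and DMSO 3 together (an alternative added after seeing the data), and 99 to 2496 when leaving out 1 library. Effector genes called higher were 19 with quality weights, 19 without inhibitor 3 and DMSO 3 together, and 5 to 17 when leaving out 1 library. The share of all tested genes called higher was 12.4% with quality weights and 9.92% without inhibitor 3 and DMSO 3 together. It was 0.334% to 10.8% when leaving out 1 library, against 1.95% in the main comparison. Effector genes called lower were 2 with quality weights (GBP2 and LGALS3BP), 1 without inhibitor 3 and DMSO 3 together (LGALS3BP) and 0 to 2 when leaving out 1 library. Over all tested genes, 1219 of 11216 were called lower with quality weights. Without inhibitor 3 and DMSO 3 together they were 1151 of 11355. Pathway genes called higher were 19 with quality weights, 20 without inhibitor 3 and DMSO 3 and 4 to 18 when leaving out 1 library, and 2 pathway genes were lower with quality weights. The cause of these shifts was not tested. With no filter on low counts 16 effectors and 14 pathway genes were called higher, where 2.53% of all 15625 tested genes were, and no effector was lower. The other alternatives (DESeq2 size factors, library totals only, a mean count of at least 50, DESeq2, limma-voom) gave 10 to 14 higher effectors and none lower. The median log2 fold change of the effectors lay between 0.319 and 0.468 under all alternatives.

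Among the effectors and named pathway genes, signs turned only for genes that were not called in the main comparison, 7 of them effectors. GBP1 was at -0.00914 with DESeq2 size factors, -0.0109 with no filter, -0.00904 with a mean count of at least 50, -0.00888 with DESeq2, -0.000628 with a replicate block and -0.0465 to 0.0754 with 1 library left out. ISG20 was at 0.0485 with library totals, 0.0227 with limma-voom, 0.0248 with a replicate block and -0.239 to 0.184 with 1 library left out. RTP4 was at 0.0458 with library totals, 0.108 with quality weights, 0.196 without inhibitor 3 and DMSO 3 and -0.146 to 0.134 with 1 library left out. IFI16 was at 0.0145 with library totals, 0.0286 with quality weights, 0.054 without inhibitor 3 and DMSO 3 and -0.115 to 0.00453 with 1 library left out. NMI was at 0.00852 and TRIM25 at 0.00383 with library totals, and TRIM25 at -0.191 to 0.0699 with 1 library left out. SAMD9L was at -0.0366 with quality weights and -0.152 to 0.387 with 1 library left out. IRF1 was at 0.0588 with library totals, 0.0418 with quality weights, 0.0184 without inhibitor 3 and DMSO 3 and -0.0906 to 0.0572 with 1 library left out. IRAK4 was at 0.0185 with quality weights, 0.397 without inhibitor 3 and DMSO 3 and -0.503 to 0.272 with 1 library left out, and IFNE at 0.0295 without inhibitor 3 and DMSO 3. IRF9 also lost its call with limma-voom (adjusted p = 0.05001).

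No pairing by the shared replicate numbers was seen: deviations of same-numbered libraries correlated at -0.0786, -0.0447 and -0.12, and 0 of 3 inhibitor libraries correlated best with their own number. These are deviations from means of 3 libraries, so they cannot settle whether libraries were paired. A fit with the replicate number as a block called 327 genes, 11 higher effectors (PARP9 was not called, adjusted p = 0.0688) and none lower, and 10 higher and 1 lower pathway gene; the median of the effectors was 0.376.

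Depth limits the 6 effectors that were not tested.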
